A study of Homo sapiens with 2 samples.

Results

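The mitochondrial ribosomal proteins were examined in SW13, an established human line from an adrenal adenocarcinoma, by setting ribosome profiling beside RNA sequencing. Members were the rows of the gene table whose symbol starts with MRPL (large subunit) or MRPS (small subunit) and a digit, leaving out pseudogenes. This took 77 of 23608 rows: 47 large-subunit genes, 29 small-subunit genes and MRPL23-AS1, an antisense RNA listed at 0 in both libraries and not considered further. The cells carried the plasmids Add2-Mhrt779 and Add2-Hotair, for murine long non-coding RNAs, and were collected 48 hours after transfection with 5 µg. Each assay had 1 library, both from transfected cells of the same line, and no untransfected cells were analysed here. No difference below therefore has a replicate check.

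The mitochondrial ribosome translates the few messenger RNAs of the mitochondrial genome, which encode core subunits of the respiratory chain. Its RNAs come from mitochondrial DNA, whereas its proteins are encoded in the nucleus, made by cytosolic ribosomes and imported. Fragments in the ribosome profiling library over an MRPL or MRPS mRNA thus report cytosolic ribosomes on that mRNA. The large subunit forms peptide bonds and holds the exit tunnel, and the small subunit reads the codons. Some of the proteins belong to bacterial ribosomal families, and others are particular to mitochondria.

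Levels are the deposited FPKM values, which divide fragments by transcript length and library size, so levels of different genes can be compared. They are called RNA for RNA sequencing and footprints for ribosome profiling. The reads behind each value are unknown. The ratio of a gene is log2 of (footprint FPKM + 1) over (RNA FPKM + 1), centred on the median of the 2734 tested genes, which averaged 10 FPKM or more over both libraries. The added 1 pulls the folds of low genes towards 1. Before centring that median was 0.39, so a gene equal in both libraries lies 1.31-fold below the median gene. Of 10 genes of adrenal cortex steroid synthesis and its control, 9 were listed at 0 in both libraries, so the adrenal origin of the line was not visible in them.

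All 76 protein genes were above 0 in both libraries, at moderate levels that were alike for the subunits. In RNA sequencing the large-subunit genes ranged from 1.11 to 50.1 FPKM with a median of 9.78, and the small-subunit genes from 2.93 to 28.8 FPKM with a median of 10.5. In ribosome profiling the large subunit ranged from 1.36 to 69.1 FPKM with a median of 15.2, and the small subunit from 0.20 to 63.3 FPKM with a median of 13.6. The 87 cytosolic ribosomal protein genes, which build the ribosomes of the cytosol, had a median of 152 FPKM in RNA sequencing and of 183 FPKM in ribosome profiling. The medians over the 76 genes were 10.1 and 14.9 FPKM. The sum over the large-subunit genes was 604 FPKM as RNA and 892 as footprints, a ratio of 1.48. The sum over the small-subunit genes was 353 and 500.2 FPKM, a ratio of 1.42.

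**Figure D1:**
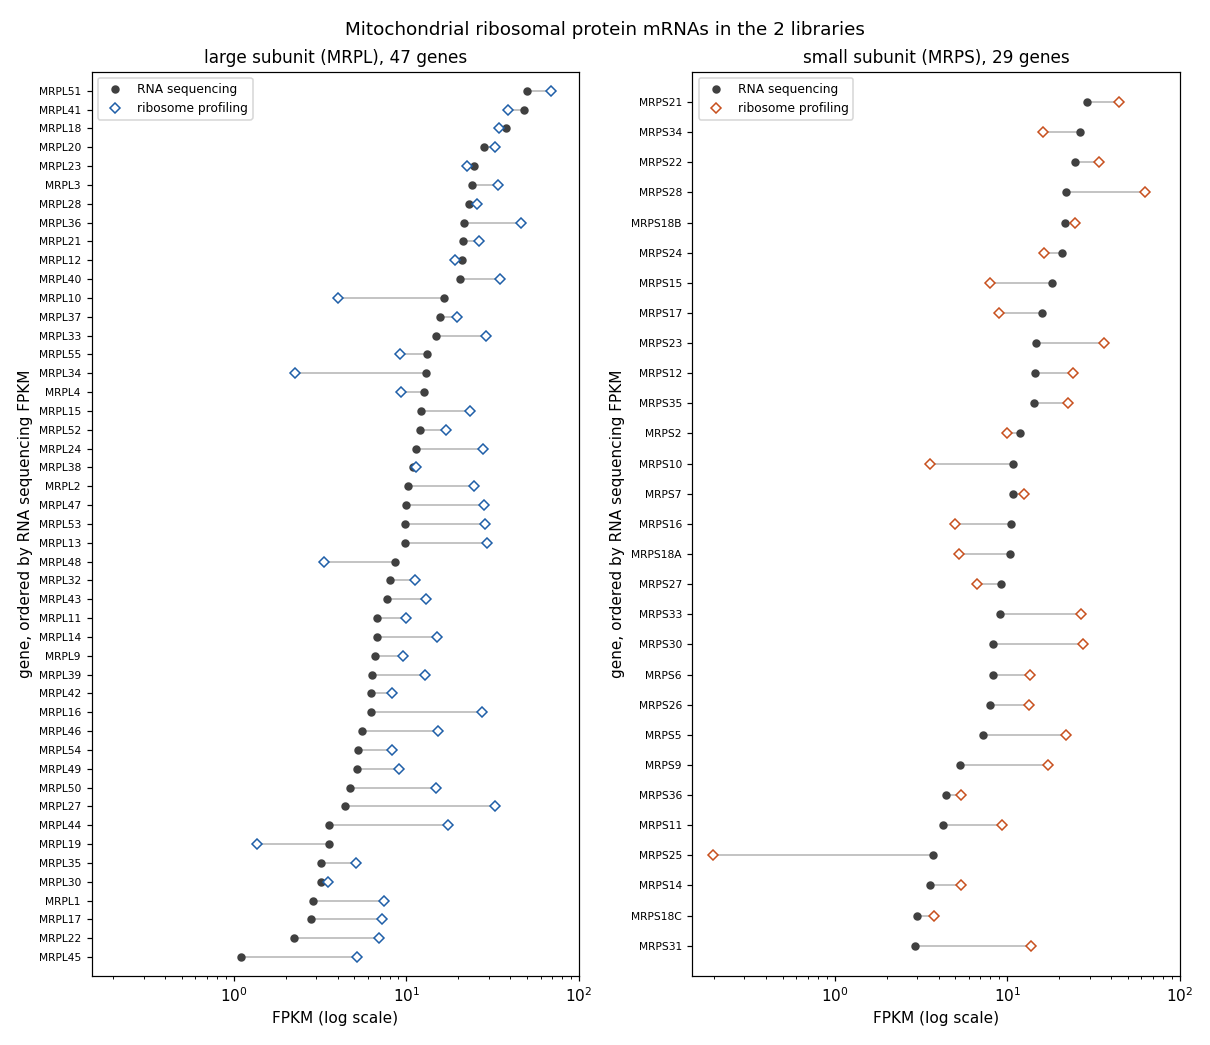
FPKM on a log axis for each of the 47 large-subunit genes (left) and 29 small-subunit genes (right), ordered by RNA sequencing. Filled circles are the RNA sequencing library, open diamonds the ribosome profiling library, and grey lines join the values of a gene. MRPL51 is the highest gene in both libraries, at 50.1 and 69.1 FPKM, and the long grey lines of MRPL27, MRPL10, MRPL34 and MRPS25 mark wide gaps between the libraries.

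Most tested mitochondrial ribosomal protein mRNAs lay within 2-fold of the median gene. The ribosome profiling value was the higher one in 56 of 76 genes as deposited, 37 of 47 in the large and 19 of 29 in the small subunit. Among the tested genes of the 76 the share was 75.5%, beside 69.6% of tested protein-coding genes and 65.8% of all tested genes. Relative to the median gene, 45 of 76 lay above it, and 61.2% of the tested ones, beside 51.6% of tested protein-coding genes. Of the 76, 49 passed the filter, 30 of the large and 19 of the small subunit. Among these, 11 lay 2-fold or more above the median gene and 4 lay as far below, beside 13.1% above and 19.7% below over all tested genes. Over the 2245 tested protein-coding genes the shares were 10.0% above and 14.4% below. As shares of the 49, the 11 make 22.4% and the 4 make 8.16%. With a pseudocount of 5 FPKM in place of 1, 4 above and 2 below were left.

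The filter bears on these counts. Of the 15 genes 2-fold or more away, 13 had 1 library under 10 FPKM. Such a gene passes only through the other library and so has to differ in level between them. Of the 28 genes with at least 10 FPKM in both libraries, 1 lay past 2-fold above the median gene, MRPS28, and 1 past it below, MRPS34. No excess on either side is read from the 11 and the 4. MRPL10 and MRPL46, with means of 10.3 and 10.4 FPKM, lay just inside the filter. MRPL50 and MRPL32, with means of 9.76 and 9.65 FPKM, lay just outside. Of the 27 genes under the filter, 3 lay 2-fold or more above the median gene and 7 as far below. Of 16554 protein-coding rows that were not tested, which include rows listed at 0, 291 lay as far above and 3951 as far below.

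The subunits were close to each other. The tested large-subunit genes had a median ratio of 0.19, 1.14-fold above the median gene, with 6 of 30 past 2-fold above and 1 past it below. The tested small-subunit genes had a median of 0.23, 1.17-fold above, with 5 of 19 past 2-fold above and 3 past it below. With every gene counted, including those under the filter, the medians were 0.15 and 0.050. The large-subunit median minus that of the small subunit was thus -0.038 over tested genes and 0.098 over all 76. With a filter of 30 FPKM, which left 5 large-subunit and 2 small-subunit genes, it was -0.85.

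**Figure D2:**
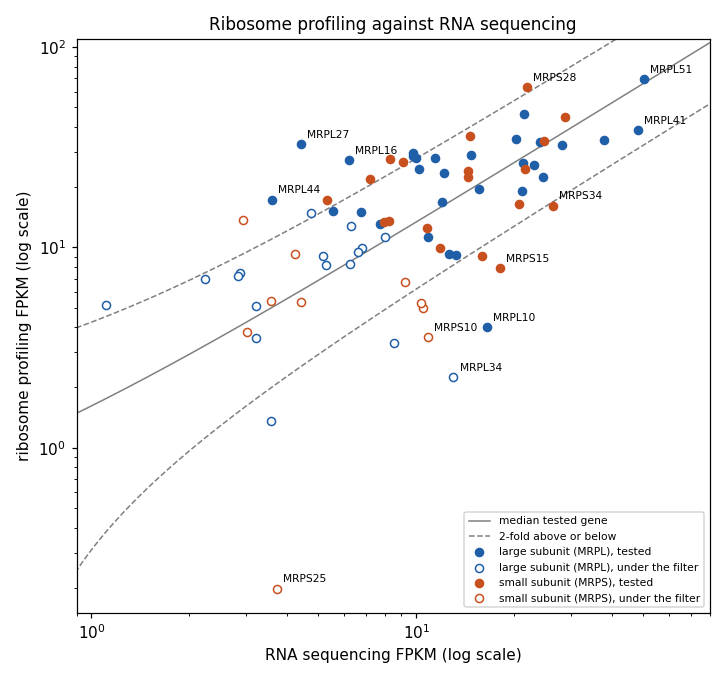
Ribosome profiling FPKM against RNA sequencing FPKM for the 76 genes, both on log axes, with the large subunit in blue and the small subunit in orange. Filled points passed the filter, the solid line is the median tested gene and dashed lines lie 2-fold above and below it. Most points lie between the dashed lines, MRPL27 lies farthest above and MRPL10 farthest below among the filled points.

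In the large subunit, the tested genes farthest above the median gene were MRPL27, MRPL44 and MRPL16. MRPL27, of the bacterial L27 family that reaches towards the peptidyl transferase centre, lies on chromosome 17 from 48445228 to 48450562 (hg19). It had 4.42 FPKM as RNA and 32.8 as footprints, 4.76-fold above the median gene. Its RNA level was among the lower ones of the subunit and its ribosome profiling level among the higher ones, and 98.8% of tested protein-coding genes had a lower ratio. In the authors' deposited table its log2 ratio was 2.89 with a model standard error of 1.27 and q = 0.261.

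MRPL44, a mitochondria-specific protein with a ribonuclease III-like fold, lies on chromosome 2 from 224822121 to 224832431. It had 3.59 FPKM as RNA and 17.3 as footprints, 3.05-fold above the median gene. MRPL16, of the family that contacts transfer RNA near the peptidyl transferase centre, lies on chromosome 11 from 59573608 to 59578345. It had 6.22 and 27.4 FPKM, a ratio of 1.58 on the log2 scale. All of MRPL27, MRPL44 and MRPL16 had under 10 FPKM in RNA sequencing. The authors' deposited table gives MRPL44 and MRPL16 log2 ratios of 2.27 and 2.14, with model standard errors of 1.01 and 0.99 and q = 0.265 and 0.292.

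A further 3 large-subunit genes were just past 2-fold. MRPL13 had 9.77 FPKM as RNA and 29.5 as footprints, 2.17-fold above the median gene, and its locus overlaps that of MTBP. MRPL53, a mitochondria-specific protein, had 9.78 and 28.6 FPKM, 2.10-fold above. MRPL47, which RefSeq also names uL29m after the bacterial L29 family at the tunnel exit, had 9.99 and 28.1 FPKM, 2.02-fold above. Their levels were nearly the same as one another in each library. In the authors' deposited table their log2 ratios were 1.60, 1.55 and 1.49, with model standard errors of 0.93, 1.12 and 0.95 and q = 0.420, 0.517 and 0.461. All 3 fell short of 2-fold with a pseudocount of 5 FPKM. MRPL47 also fell short when centred on cytosolic ribosomal proteins, at 0.98.

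The stalk of the large subunit, where the GTPase translation factors bind, held the lowest tested ratio of all 49 genes. MRPL10, which anchors the stalk, lies on chromosome 17 from 45900638 to 45908907. It had 16.5 FPKM as RNA and 4.03 as footprints, 4.56-fold below the median gene, and was the 1 tested large-subunit gene past 2-fold on that side. Among tested protein-coding genes, 3.25% had a lower ratio. In the authors' deposited table its log2 ratio was -2.03 with a model standard error of 1.09 and q = 0.378. MRPL12, the stalk protein itself, present in several copies per ribosome, had 21.1 and 19.1 FPKM, 1.44-fold below. MRPL11, at the stalk base, had 6.79 and 9.94 FPKM and did not pass the filter. MRPL12 ranked 15 of the 76 by RNA and 31 by footprints, so its level in neither library stood apart from that of proteins present once.

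Around the exit tunnel, 5 of 6 listed genes lay above the median gene, beside 45 of all 76 genes. Among protein-coding rows above 0 in either library 3305 of 12880 did, but most of those rows are under the filter. Of the 3 listed genes that were tested, 2 lay above it, beside 51.6% of tested protein-coding genes, and MRPL44 was past 2-fold. MRPL47, named above for the L29 family at the tunnel exit, was not on this list and lay 2.02-fold above. MRPL24, of a family that lines the tunnel rim, had 11.4 FPKM as RNA and 27.9 as footprints, 1.78-fold above. MRPL23, of the family that docks chaperones or membrane machinery at the tunnel exit, had 24.6 and 22.4 FPKM, 1.43-fold below. MRPL45, which ties the ribosome to the inner membrane, had the lowest RNA level of all 76 genes, 1.11 FPKM, and 5.18 FPKM in ribosome profiling. MRPL17 had 2.82 and 7.19 FPKM and MRPL22 had 2.24 and 6.99 FPKM, so that 3 of the 6 were under the filter.

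The mitochondria-specific proteins of the central protuberance, the crown of the large subunit, went both ways. MRPL40 had 20.3 FPKM as RNA and 34.8 as footprints, 1.28-fold above the median gene. MRPL46 had 5.56 and 15.2 FPKM, 1.88-fold above, and MRPL38 had 10.9 and 11.3 FPKM, 1.26-fold below. MRPL48, under the filter, had 8.55 and 3.33 FPKM, 2.88-fold below. MRPL46 lies on chromosome 15 with 50 bases between its locus and that of the small-subunit gene MRPS11, which had 4.22 and 9.32 FPKM. Both neighbours were thus low in RNA sequencing and higher in ribosome profiling. The latter held for 56 of all 76 genes, and MRPS11 was under the filter.

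The 3 large-subunit mRNAs of highest level lay within 2-fold of the median gene. MRPL51, a mitochondria-specific protein, had 50.1 FPKM as RNA and 69.1 as footprints, 1.05-fold above the median gene, and ranked 1 of 76 in both libraries. MRPL41, also mitochondria-specific, had 48.2 and 38.7 FPKM, 1.62-fold below. MRPL18, of the family that binds 5S ribosomal RNA in bacteria, had 37.9 and 34.6 FPKM, 1.43-fold below. In the authors' deposited table the log2 ratios of MRPL51, MRPL41 and MRPL18 were 0.46, -0.32 and -0.13, with model standard errors of 0.85, 0.91 and 0.86. MRPL36, of the smallest bacterial ribosomal protein family, had 21.5 and 46.1 FPKM, 1.60-fold above, and ranked 13 by RNA but 3 by footprints.

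Of the core proteins that bind ribosomal RNA, MRPL2 had 10.2 FPKM as RNA and 24.7 as footprints, 1.75-fold above the median gene. MRPL3 had 24.1 and 33.8 FPKM, 1.06-fold above, and MRPL4 had 12.6 and 9.27 FPKM, 1.74-fold below. MRPL14 had 6.78 and 15.1 FPKM, 1.58-fold above, MRPL15 had 12.2 and 23.5 FPKM, 1.42-fold above, and MRPL33 had 14.8 and 28.9 FPKM, 1.45-fold above. None of these 6 was 2-fold away. MRPL20, MRPL21 and MRPL28 had 28.2, 21.4 and 23.0 FPKM in RNA sequencing and 32.6, 26.4 and 25.8 FPKM in ribosome profiling, within 1.17-fold of the median gene.

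Of the other tested large-subunit proteins, MRPL37 had 15.6 FPKM as RNA and 19.6 as footprints, 1.05-fold below the median gene. MRPL52 had 12.03 and 16.9 FPKM, 1.05-fold above, and MRPL43 had 7.73 and 13.1 FPKM, 1.23-fold above. MRPL55, which RefSeq also names bL31m, had 13.3 and 9.19 FPKM, 1.83-fold below. Under the filter, MRPL34, of a small bacterial family, had 13.0 and 2.26 FPKM, 5.64-fold below, the lowest ratio of all 76 with the added 1 FPKM. The small-subunit gene MRPS25, with 3.72 and 0.20 FPKM, lay 5.16-fold below on that scale, and in the authors' deposited table, which adds nothing, its log2 ratio of -4.23 is below the -2.53 of MRPL34. Genes under the filter that are named for their values were chosen after these were seen. MRPL19 had 3.56 and 1.36 FPKM, and MRPL50 had 4.74 and 14.8 FPKM, 2.10-fold above.

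In the small subunit, 5 tested genes lay past 2-fold on the high side. MRPS28 lies on chromosome 8 from 80831095 to 80942506. It was counted as mitochondria-specific by the number in its symbol, and no family could be read from its RefSeq names. It had 21.9 FPKM as RNA and 63.3 as footprints, 2.14-fold above, and ranked 11 of 76 by RNA but 2 by footprints. It was the 1 gene past 2-fold on the high side with at least 10 FPKM in both libraries. In the authors' deposited table its log2 ratio was 1.53 with a model standard error of 0.90 and q = 0.422.

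The other 4 had under 10 FPKM in RNA sequencing. MRPS30 lies on chromosome 5 from 44809027 to 44815618 and had 8.30 FPKM as RNA and 27.7 as footprints, 2.35-fold above the median gene, the highest tested ratio of the small-subunit symbols. MRPS9, of the family whose tail reaches transfer RNA in the peptidyl site, had 5.30 and 17.2 FPKM, 2.21-fold above. MRPS5, of the family at the entry of the mRNA channel, had 7.22 and 21.9 FPKM, 2.13-fold above. MRPS33, a mitochondria-specific protein, had 9.12 and 26.8 FPKM, 2.10-fold above. MRPS30 had a log2 ratio of 1.74 in the authors' deposited table, with a model standard error of 0.88 and q = 0.351. MRPS9, MRPS5 and MRPS33 had 1.70, 1.60 and 1.56 in the authors' deposited table, with standard errors of 0.98, 0.90 and 1.12 and q = 0.415, 0.400 and 0.516. With footprints scaled to the coding part of the transcript, an alternative chosen after seeing the data, MRPS28 lay at 0.75 in place of 1.10, MRPS30 at 0.63, MRPS9 at 0.52 and MRPS5 at 0.49, all short of 2-fold. The transcript lengths used for that scaling are not from the authors' annotation. With a pseudocount of 5 FPKM MRPS30, MRPS9, MRPS5 and MRPS33 fell short as well.

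Structures of the human mitochondrial ribosome place MRPS30 and MRPS18A in the large subunit, and RefSeq also names them mL65 and mL66. With both counted there, the tested large subunit had a median ratio of 0.30 and the small subunit 0.22. This moved the difference between the subunits from -0.038 to 0.079. MRPS18A had 10.3 FPKM as RNA and 5.26 as footprints, and did not pass the filter.

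On the low side of the small subunit stood MRPS15, MRPS17 and MRPS34. MRPS15, of a family that binds ribosomal RNA on the platform, lies on chromosome 1 from 36921362 to 36930040. It had 18.2 FPKM as RNA and 7.93 as footprints, 2.81-fold below the median gene. MRPS17 lies on chromosome 7 from 56019611 to 56023033 and had 15.9 and 9.02 FPKM, 2.21-fold below. MRPS34, a mitochondria-specific protein, lies on chromosome 16 from 1821896 to 1823140 and had 26.3 and 16.2 FPKM, 2.08-fold below. In the authors' deposited table their log2 ratios were -1.19, -0.82 and -0.70, with model standard errors of 1.10, 1.33 and 0.93 and q = 0.628, 0.808 and 0.755. With footprints scaled to the coding part, MRPS17 lay at 0.032 in place of -1.14. All 3 fell short of 2-fold with a filter of 1 FPKM, at -0.94, -0.60 and -0.51, and with no filter, at -0.82, -0.47 and -0.38. MRPS17 and MRPS34 also fell short without centring, at -0.75 and -0.67, and with a pseudocount of 5 FPKM, at -0.91 and -0.89.

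The paralogs MRPS18A, MRPS18B and MRPS18C, which share the bacterial S18 family, differed in level. MRPS18B had 21.6 FPKM as RNA and 24.7 as footprints, 1.15-fold below the median gene, and MRPS18C had 3.01 and 3.76 FPKM, 1.10-fold below. The MRPS18B row is placed on an alternative chromosome 6 haplotype sequence of hg19, and the authors' own test was not run on it.

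The rest of the tested small subunit lay within 2-fold. MRPS21 had 28.8 FPKM in RNA sequencing, the highest of the small subunit, and 44.7 as footprints, 1.17-fold above the median gene. MRPS12, the family at the decoding centre, had 14.5 and 24.2 FPKM, 1.24-fold above, and its locus overlaps that of SARS2. MRPS22, a mitochondria-specific protein mutated in an inherited mitochondrial disease, had 24.7 and 33.8 FPKM, 1.04-fold above. With footprints scaled to the coding part, MRPS21 lay at 1.73 in place of 0.23. MRPS23 had 14.6 and 36.2 FPKM, a ratio of 0.86, which became 3.19 under that scaling and 1.25 without centring. The transcript used to scale MRPS23 has 5621 bases, of which 10.2% are coding, and is not from the authors' annotation. MRPS35 had 14.4 and 22.4 FPKM, 1.16-fold above.

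MRPS7, of the family that organises the head, had 10.8 FPKM as RNA and 12.6 as footprints, 1.14-fold below the median gene. MRPS2 had 11.9 and 9.91 FPKM, 1.54-fold below, and MRPS24 had 20.7 and 16.4 FPKM, 1.64-fold below. MRPS6 had 8.25 and 13.6 FPKM and MRPS26 had 7.95 and 13.4 FPKM, 1.205-fold and 1.23-fold above. Under the filter, MRPS10 had 10.9 and 3.57 FPKM and MRPS31 had 2.93 and 13.7 FPKM. MRPS36, since described as a part of the alpha-ketoglutarate dehydrogenase complex, had 4.43 and 5.37 FPKM and was under the filter as well.

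Genes of bacterial families were compared with mitochondria-specific ones by the number in the symbol, with 1 exception. MRPL numbers up to 36 and MRPS numbers up to 21 counted as bacterial families. MRPS24 was added to the bacterial families by hand, against its number. The 29 tested genes of bacterial families had a median ratio of 0.080, with 5 past 2-fold above the median gene and 3 past it below. The 20 tested genes counted as mitochondria-specific had a median of 0.30, with 6 above, among them MRPS28, and 1 below. The gap depended on how families were assigned. Taking them from the protein names in RefSeq gave medians of 0.23 over 29 genes and 0.26 over 18 genes, a difference of -0.029 in place of -0.22. MRPS24 and MRPS28 had no such name and were left out there.

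**Figure D3:**
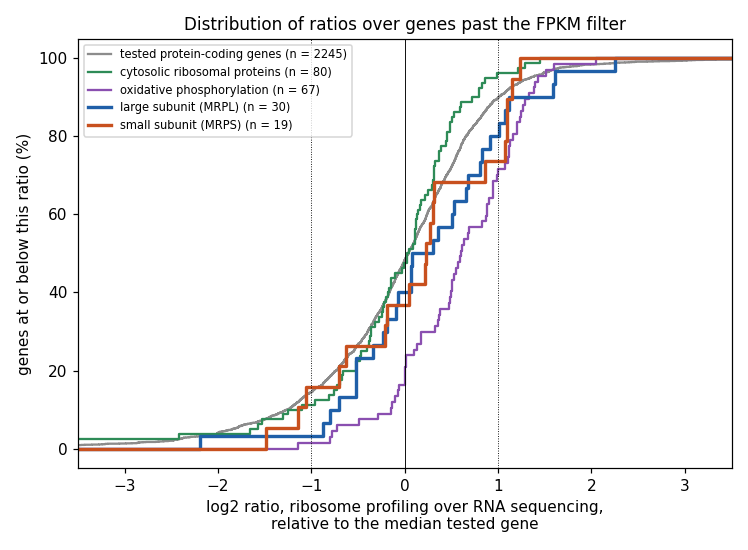
Share of genes (%) at or below each log2 ratio relative to the median tested gene, for the tested large-subunit (30) and small-subunit (19) genes, cytosolic ribosomal proteins (80), genes of oxidative phosphorylation (67) and protein-coding genes (2245). Dotted lines mark 2-fold. At the middle of the axis of shares, oxidative phosphorylation lies farthest right with a median of 0.61, beside 0.19 and 0.23 for the large and small subunit and 0.036 for cytosolic ribosomal proteins.

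The mitochondrial ribosomal proteins were set beside the ribosomal proteins of the cytosol and the respiratory subunits. Over 80 tested cytosolic ribosomal proteins the median ratio was 0.036, with 3 past 2-fold above the median gene and 9 past it below. The 67 tested nuclear genes of oxidative phosphorylation had a median of 0.61, with 19 above and 1 below. The 49 mitochondrial ribosomal proteins, with a median of 0.23, lay between these lists. Over the 28 of them with at least 10 FPKM in both libraries the median was 0.058, near that of the cytosolic proteins. Their place between the lists thus depends on the filter, and the other lists were not cut in that way. No test was made of these differences. The proteins of a ribosome are used in nearly equal numbers, and the spread of their mRNA levels was described by the SD of log2(FPKM + 1) over genes. It was 0.98 in RNA sequencing and 1.14 in ribosome profiling over the 76 genes. Over the 28 with at least 10 FPKM in both libraries it was 0.59 and 0.60. Footprint FPKM is divided by the whole transcript, so its spread also holds differences in coding share. Whether ribosome-bound fragments are more alike than total RNA is not read from these values. The levels in the 2 libraries had a Pearson r of 0.60 and a Spearman rho of 0.59 across the 76 genes. With the filter they were 0.37 and 0.39 across the 49 tested genes, beside 0.75 and 0.62 across the tested protein-coding genes. RNA reached 50.1 FPKM in the 49 but 2530 FPKM over protein-coding rows, and a correlation depends on that range. In 21 of the 49, 1 library was under 10 FPKM. No lower agreement of these mRNAs is read from the values. The correlations are across genes, which share both libraries and are not replicates.

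The authors' own test of one library against the other called none of the 76 genes. It ran on 63 of them, with the status OK, of which 4 had an unadjusted p under 0.05 and the lowest q was 0.261. Those 4 were MRPL27, MRPL44, MRPL16 and MRPS30, all with the higher value in ribosome profiling, and they make 6.35% of the 63. Of all 4849 rows with status OK in the authors' deposited table, 1.30% were called and 14.2% had an unadjusted p under 0.05. The model standard error of a log2 ratio in the authors' deposited table, taken as the ratio over its statistic, ranged from 0.75 to 1.59 over the 63 genes with a median of 0.95. It holds no spread between cultures. A gene 2-fold from the median gene is thus about 1 standard error away.

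**Figure D4:**
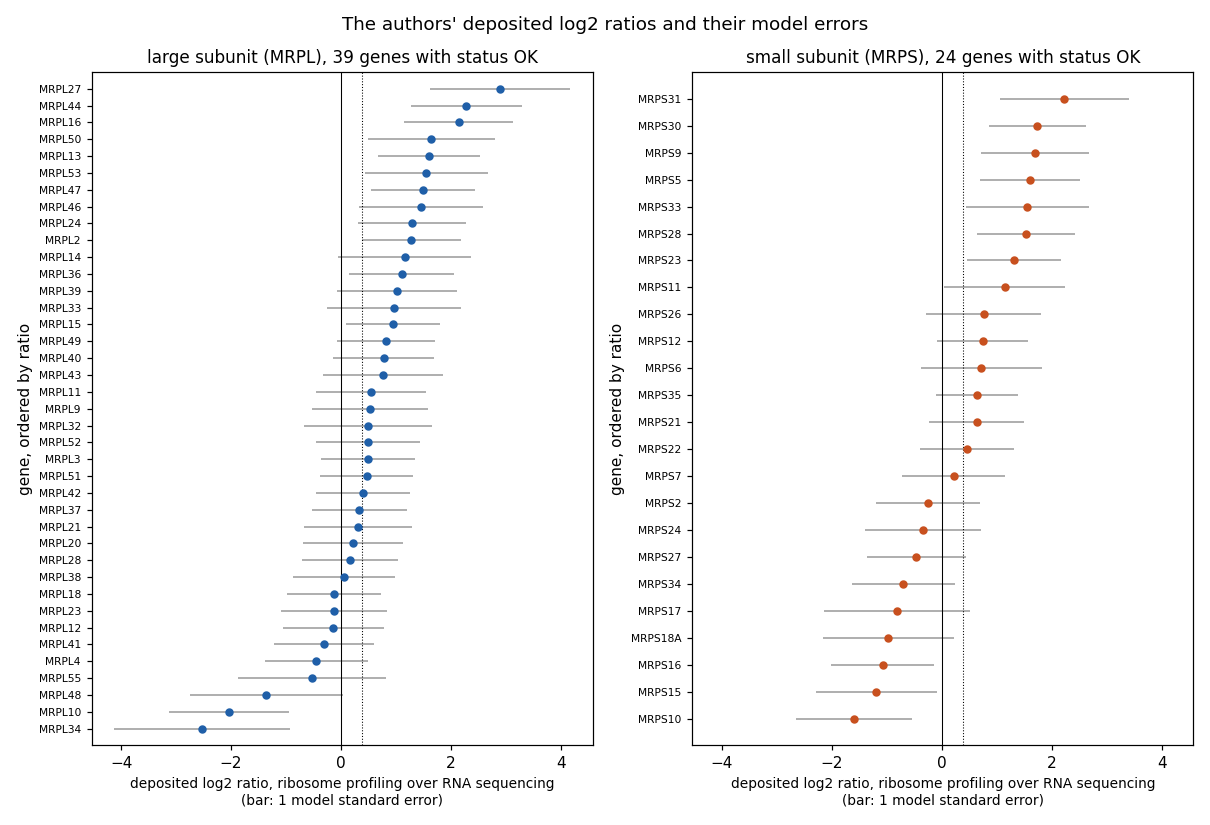
The authors' deposited log2 ratio of footprints over RNA for the 39 large-subunit and 24 small-subunit genes with status OK, ordered by ratio, with bars of 1 model standard error. The solid line is 0 and the dotted line is the median of tested genes, 0.39. That median was taken with the added 1 FPKM, which the deposited ratios do not have. The whole bar lies to the right of the dotted line for 14 genes, among them MRPL27 and MRPL44, and to its left for 8, among them MRPL10 and MRPL34.

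The sequence at the start codon was examined because the context there affects initiation and some mitochondrial genes carry a known element at that place. This element, called TISU for translation initiator of short untranslated regions, supports initiation close to the 5′ end, and its DNA also binds the factor YY1. Windows of 15 bases, 6 before the start codon and 6 after it, were read from 1 GENCODE 29 transcript per gene, on the mRNA strand. The letters AAGATGGC, with the start codon inside, stood there in 14 of the 76 genes, 18.4%, against 2.69% of 17868 protein-coding rows. It was in 6 of the 49 tested genes, 12.2%, against 5.09% of tested protein-coding genes. Among cytosolic ribosomal proteins 6.98% had it, and among genes of oxidative phosphorylation 12 of 80. The same letters followed by GGC stood in 9 of 76, 11.8%, against 0.817% of protein-coding rows, and in 5 of the 49 tested, 10.2%, against 1.93% of tested protein-coding genes. Among the 86 cytosolic ribosomal proteins with a window the longer form was in 0, and among 80 genes of oxidative phosphorylation in 5. These matches are a description of annotated starts.

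The 9 genes with the longer form are shown from the lowest to the highest ratio, with the matched letters in capitals.
MRPS10: ggcAAGATGGCGGCg
MRPS18A: ttgAAGATGGCGGCc
MRPS24: cccAAGATGGCGGCc
MRPL38: gggAAGATGGCGGCg
MRPS18B: gtcAAGATGGCGGCg
MRPL22: cgaAAGATGGCGGCg
MRPL46: cgaAAGATGGCGGCg
MRPL50: tcgAAGATGGCGGCg
MRPS30: gcaAAGATGGCGGCg
For comparison, the highest and lowest tested genes of the large subunit and the lowest tested gene of the small subunit read as follows, with the start codon in capitals.
MRPL27: gaaagcATGgcgtcg
MRPL10: gtggagATGgctgcg
MRPS15: gtcaccATGctgagg

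The 9 genes did not share a ratio. They ran from MRPS10, 3.40-fold below the median gene, to MRPS30, 2.35-fold above, and 4 of 9 lay above it. The annotated 5′ untranslated region was 12 bases in MRPS18A, 16 in MRPS10 and 22 in MRPL50, and 157 in MRPS18B and 538 in MRPL38. Over the 14 genes with the shorter form the median ratio was -0.019, with 7 above the median gene, and over the other 62 it was 0.098, with 38 above. A purine stood 3 bases before the start codon in 71 of 76 genes, 93.4%, and a G directly after it in 53, 69.7%. Over the 49 tested genes the shares were 91.8% and 67.3%, against 91.6% and 52.8% of tested protein-coding genes.

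The lengths in the same annotation were set beside the ratio, since FPKM is divided by the whole transcript while ribosomes cover the coding part. This annotation is not the authors'. In MRPL41 its transcript has 1262 bases, more than the locus in the deposited data, from 140446309 to 140447007, can hold. Whether changes under the scaling come from this difference was not tested. Scaling footprints to the coding part took 6 of the 15 genes back within 2-fold, 5 of them from the high side, and brought MRPL4, MRPS21, MRPS23 and MRPS24 past it. The coding part made a median of 51.3% of the transcript over the 76 genes. Over the 49 tested ones it was 57.2%, beside 55.4% over tested protein-coding genes. Across the 76 genes the ratio had a Pearson r of 0.21 and a Spearman rho of 0.17 with the coding share, and 0.13 and 0.12 with log2 coding length. Across the 49 tested genes the values were 0.043 and 0.052 with the share, and 0.018 and 0.040 with the length. The share itself ran from 2.75% in MRPL42 to 91.6% in MRPL39, both of which lay under the filter, at 6.24 and 8.26 FPKM for MRPL42 and 6.30 and 12.8 FPKM for MRPL39.

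Some rows share their place in the genome with others, and how shared reads were divided is not known. The loci of 13 of the 76 genes overlap another row, among them MRPS24 and URGCP, MRPS25 and NR2C2, MRPS6 and SLC5A3, and MRPL49 and FAU. RefSeq lists pseudogenes for 41 of the 76. Over the 63 genes with no overlapping row, 41 passed the filter, with 10 past 2-fold above the median gene and 4 past it below, an alternative chosen after seeing the data.

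Genes that work with the mitochondrial ribosome were counted from lists. Beside them, 10.0% of tested protein-coding genes lay 2-fold or more above the median gene and 14.4% as far below. Of 7 mitochondrial ribosomal proteins under other symbols, 4 passed the filter, of which 1 lay past 2-fold above the median gene and 0 past it below. GADD45GIP1 had 56.3 FPKM as RNA and 75.5 as footprints, AURKAIP1 had 22.6 and 42.5 FPKM, and DAP3 had 12.8 and 15.5 FPKM. CHCHD1 had 6.90 and 20.2 FPKM, 2.05-fold above, and passed the filter only through ribosome profiling. Of 21 assembly factors, 3 passed the filter, with 0 past 2-fold above and 1 past it below. NGRN had 12.8 and 7.54 FPKM, 2.12-fold below, and passed only through RNA sequencing. MALSU1 had 12.02 and 14.1 FPKM, and DHX30 had 9.14 and 12.03 FPKM. Assembly factors were also low in level, with medians of 4.32 FPKM as RNA and 3.06 as footprints.

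Of 17 mitochondrial translation factors and their partners, 4 passed the filter, with 2 past 2-fold above and 0 past it below. Of the 13 under the filter, 0 lay 2-fold or more above and 4 as far below, and the median ratio over all 17 was -0.34. SLIRP, which with LRPPRC stabilises mitochondrial mRNAs, had 141 FPKM as RNA and 522 as footprints, 2.81-fold above, while LRPPRC had 10.4 and 13.1 FPKM, 1.06-fold below. OXA1L, which inserts proteins into the inner membrane, had 5.12 and 18.2 FPKM, 2.40-fold above, and passed the filter only through ribosome profiling. The elongation factor TUFM had 37.4 and 31.0 FPKM, 1.57-fold below. None of the 5 genes of mitochondrial transcription passed the filter. None of the genes named in these lists was called in the authors' deposited table.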

How the data were processed

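RNA sequencing and ribosome profiling of transfected SW13 cells were compared, 1 library each. The deposited table gives FPKM values per gene row, the authors' log2 ratio, a test statistic (a score), p-values and q-values. Both hg19 and mm10 appear as builds in the submitters' processing notes, as do the tools bedtools (2.16.1), TopHat2 (2.0.8b), SAMtools (0.1.18) and Bowtie2 (2.0.0.6). Which program computed the table, and how it treated reads that match several places, is not given in the sources used here. FPKM keeps no depth, so no counting error is given.

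Ratios used a pseudocount of 1 FPKM, which understates those of low genes. Rows with status FAIL or HIDATA were left out of the tested genes. No p-value was computed, and at least 2-fold from the median tested gene is a description. The calculation was tested on simulated data with known shifts and little noise. That checks the arithmetic and does not show how reliable the 2-fold counts are. Gene classes come from RefSeq, and transcript lengths and start windows from GENCODE 29 (GRCh38), which is not the authors' annotation. All coordinates are those of the table, in hg19, with the first base written as 1. Every tested member could be named, with the deposited ratio for those 2-fold away and those of highest level, other members by range and count, and in each list the 3 most abundant genes and the extremes of the ratio. The members and lists were chosen with earlier results of these data known. Python 3.11.15, pandas 2.3.3 and scipy 1.17.1 were used.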

Additional observations from a re-analysis of the deposited data

How the results depend on the processing

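No paired analysis was possible because each assay had 1 library, and no library could be left out. Of the alternatives, 12 were planned and 3 were chosen after seeing the data. A median counted as shifted past 0.1, and a count past 1.5 times. Each filter also moves the centre, the median of the genes left. With a filter of 1 FPKM the median ratios were 0.69 for the large and 0.60 for the small subunit, a difference of 0.098, with 27 genes past 2-fold above and 4 below, of which 1, MRPL10, was among the 4 of the main setting. With no filter they were 0.82 and 0.72, again 0.098 apart, with 28 above. With a filter of 30 FPKM they were -0.36 and 0.49, a difference of -0.85, with 0 genes 2-fold away on either side. Fewer genes were left there, 5 and 2. A pseudocount of 5 left 4 above and 2 below. Without centring the medians were 0.58 and 0.62, with 17 above and 2 below. With MRPS18A and MRPS30 in the large subunit its median was 0.30 and the difference 0.079. Chosen later, scaling ribosome profiling to coding length gave a difference of 0.075 between subunits and -0.55 between bacterial-family and mitochondria-specific genes, and RefSeq protein names gave -0.029 for the latter. Per coding length 6 of the 15 genes past 2-fold were lost (MRPL47, MRPS17, MRPS28, MRPS30, MRPS5, MRPS9) and 4 gained, and MRPS17 changed side, to 0.032. The cause was not tested. The unknown depth limits all values under 10 FPKM.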

Other observations

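RefSeq lists 98 pseudogenes for 41 of the 76 genes, and the table has rows for 3 such pseudogenes. MRPL45P2 had 1.86 FPKM as RNA and 2.17 as footprints, beside 1.11 and 5.18 FPKM for MRPL45. MRPS31P5 had 1.60 FPKM in RNA sequencing and was listed at 0 in ribosome profiling, and MRPL42P5 was listed at 0 in both.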
